A study of Macaca mulatta with 12 samples.

Results

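The genes described here encode the nuclear part of the oxidative phosphorylation machinery, followed across blood B cells of rhesus macaques. They were taken by symbol, as the listed genes whose names begin with NDUFA, NDUFB, NDUFC, NDUFS, NDUFV, SDH, UQCR, COX4, COX5, COX6, COX7, COX8, ATP5F or ATP5M, without the NDUFAF assembly factors. The rule found 70 of 22584 listed genes: 30 of complex I, 4 of complex II, 5 of complex III, 16 of complex IV (NDUFA4, once assigned to complex I, is counted there), 11 of complex V, and 4 SDHAF assembly factors of complex II. Subunits that the table does not list under such a symbol are not analysed here.

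Oxidative phosphorylation takes place in the inner mitochondrial membrane. Complex I (NADH dehydrogenase) and complex II (succinate dehydrogenase) pass electrons to ubiquinone, complex III (the cytochrome bc1 complex) passes them to cytochrome c, and complex IV (cytochrome c oxidase) to oxygen, and complex V (ATP synthase) uses the proton gradient so built to make ATP. Most subunits are encoded in the nucleus and imported, while a small core of complexes I, III, IV and V is encoded by mitochondrial DNA. Resting lymphocytes keep a low respiratory activity that grows after activation, and memory T cells are known for a larger respiratory reserve than naive ones.

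Blood was drawn from 6 juvenile Indian-origin rhesus macaques, aged 2 to 3 years, healthy and unmanipulated. Batch 1 held the 2 males and batch 2 the 4 females, which means that sex cannot be told apart from batch. No animal was treated. Each animal gave a droplet expression library and a B cell receptor library made from it, and the 12 libraries come from 1 blood sample per animal. Groups were therefore formed within animals, either by the heavy chain class read from the receptor library (IgA, IgG, IgD and IgM, where IgG and IgA are class-switched) or by the 12 subtype names that the authors gave to the cells, whose abbreviations are used as deposited.

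The table held 13849 cells, of which 525 annotated as Contamination were left out. The remaining 13324 B cells carried a median of 5349 unique molecular identifiers (UMIs), and animals contributed from 3563778 UMIs in female 4 to 19518978 in female 3. A single productive heavy chain with a class was read in 10293 cells: 153 IgA, 2217 IgG, 1635 IgD, 6278 IgM and 10 IgE. Sums of raw counts per animal and class held 21 to 1568 cells, and female 2, with too few IgA cells, has no IgA sum. B cell markers (CD79A, MS4A1 and PAX5) summed to 1486 to 2714 CPM (counts scaled to a fixed library total) in IgA, 2308 to 4209 in IgG, 2283 to 4633 in IgD and 2291 to 4472 in IgM sums. In all, 96 barcode sequences occurred in more than 1 library. P-values for the classes measure how the differences between classes within an animal vary over these 6 animals, without female 2 for IgA. For switched against unswitched memory cells, an animal enters with several pairs of sums. Those p-values of edgeR also measure spread within an animal.

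Every member had at least 1 UMI in B cells, and together they made up 736817 UMIs, or 0.936% of all B cell UMIs. Most UMIs came from COX4I1, a regulatory subunit of cytochrome c oxidase (65972 UMIs, detected in 93.5% of cells), ATP5F1E, the epsilon subunit of the ATP synthase (61728, 91.6%), and COX7C, a small subunit of cytochrome c oxidase (43314, 87.8%). At the other end of complex I, NDUFB5 was detected in 10.5% of cells with 1588 UMIs. These counts are not set against each other per transcript length, and UMIs shared with near-identical pseudogene copies, which many of these genes have in primates, could have been split by the counting.

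Isoforms known from other tissues were nearly absent with a single exception. COX4I2 (a lung isoform) and COX6A2 (heart and skeletal muscle) had 1 UMI each in all B cells, COX6B2 (testis) had 8, and COX8C (testis) had 53 UMIs in 33 cells. COX7A1, the heart and skeletal muscle isoform of subunit VIIa, had 2638 UMIs and was detected in 16.5% of cells. Its level in sums of the authors' subtypes was 51.8 ± 9.16 CPM in CD11c+ MBC 2, 30.2 ± 10.7 CPM in C-MBC 2 and 32.4 ± 5.82 CPM in Naive B cells 1 (SD, n = 6 each). It was not called in IgG against IgM, with a log2 difference of 0.05 ± 0.10 (SE; adjusted p = 0.808, edgeR).

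As a share of the UMIs of named genes, the members summed to 1.31% ± 0.0913 in IgA cells (SD, n = 5), 1.20% ± 0.0823 in IgG, 1.03% ± 0.0458 in IgD and 1.082% ± 0.0629 in IgM cells (n = 6 each). IgA cells ranged from 1.22% to 1.44%, IgG cells from 1.11% to 1.33%, IgD cells from 0.976% to 1.09% and IgM cells from 1.02% to 1.20%, so every IgA sum lay above every IgM sum, while IgG and IgM overlapped between animals. Within animals the order was firmer: the log2 ratio over IgM was 0.27 ± 0.11 for IgA (higher in 5 of 5 animals), 0.14 ± 0.03 for IgG (higher in 6 of 6) and -0.07 ± 0.05 for IgD (lower in 6 of 6; SD over animals). Cells of the classes also differed in total RNA recovered, with a mean of 7651 UMIs per cell in IgA, 6812 in IgG, 5214 in IgD and 6032 in IgM, and the part of this difference in the shares was not tested.

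**Figure D1:**
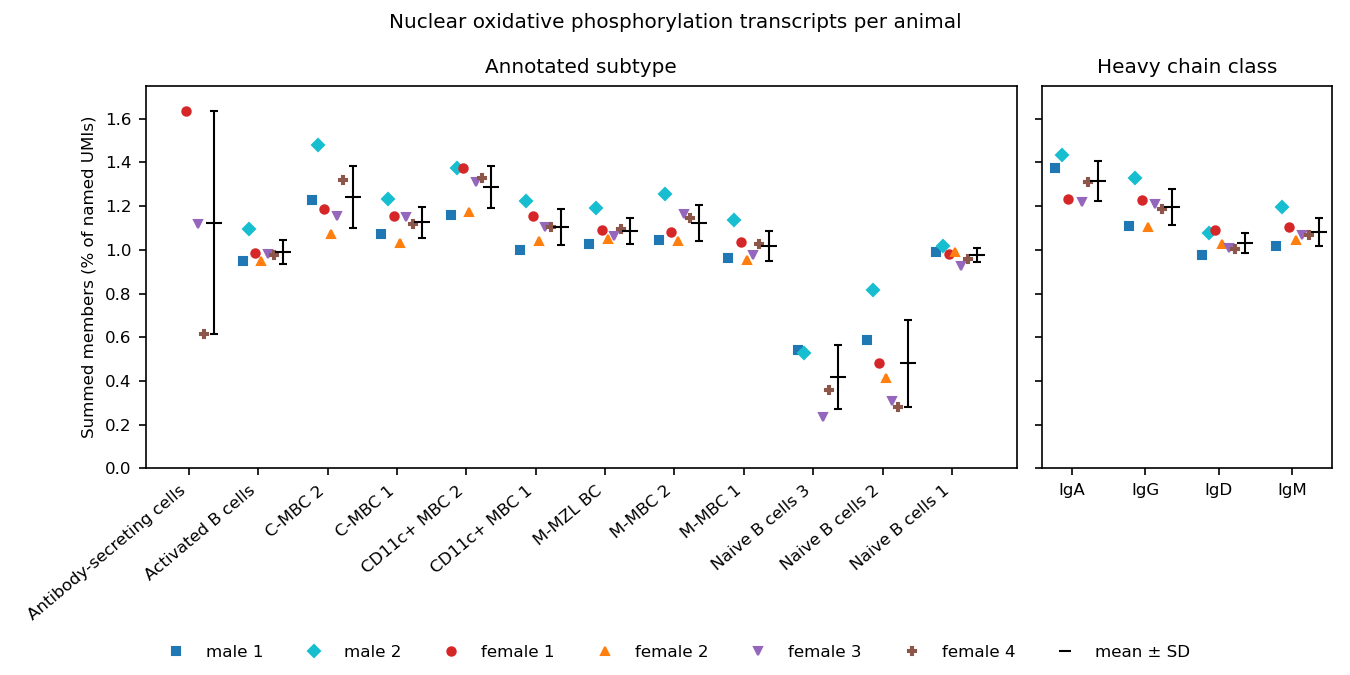
UMIs of the 70 members as a percent of the UMIs of named genes (vertical axis) by annotated subtype (left) and heavy chain class (right), with 1 point per animal and bars for the mean ± SD. By the mean, CD11c+ MBC 2 and C-MBC 2 lie at the top among memory subtypes. Naive B cells 2 and 3 lie below every other subtype except 1 antibody-secreting sum. The means of IgA and IgG lie above that of IgM, while sums of IgG and IgM overlap between animals.

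Class-switched IgG cells were first compared with IgM cells. A gene was called at an adjusted p under 0.05 in edgeR's quasi-likelihood test with the animal as a block, and 65 members passed the filter on low counts (COX4I2, COX6A2, COX6B2, COX8C and SDHAF3 did not). Of these, 18 were higher in IgG cells and 0 lower, which is 27.7%, against 23.4% called among the 9091 genes tested (12.5% higher and 10.9% lower). The share called was thus near that of all genes, while the calls among all genes went both ways. The median SE was 0.08 for a member and 0.12 over all genes, so these shares compare genes of unlike precision. The median log2 difference was 0.16 over the members, with 62 above 0, and -0.00 over all genes, and the calls were 10 in complex I, 0 in complex II, 1 in complex III, 4 in complex IV, 3 in complex V and 0 among 3 assembly factors. In females alone, 12 members were called higher, against 18.4% of all genes called there, and without female 3 the count was 8, all among the 18, against 16.1% of all genes. The 2 males alone are too few for a test. Natural killer cell markers summed to 21.4 to 214.6 CPM in IgG sums and 8.70 to 159.4 CPM in IgM sums, with none of the 3 at 0 in either class, and their part in the calls was not tested.

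In complex IV, 4 of the 12 members tested were called, and COX5A had the smallest adjusted p of all members. COX5A, which binds the matrix face of the enzyme and joins COX4I1 early in its assembly, had 198 CPM in the lowest IgG sum, a median of 285.5 and 394 in the highest, against 169, 215 and 333 CPM in IgM. The ranges overlapped between animals, but IgG stood above IgM within each of the 6, by 0.22 (female 2) to 0.58 (female 3) on the log2 scale. The log2 difference was 0.41 ± 0.08 (SE), 1.33-fold, and the quasi-likelihood test of edgeR with Benjamini-Hochberg adjustment gave an adjusted p of 0.000125. It kept its call in every setting tried except the fit without the animal block.

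COX8A, a small membrane subunit in the ubiquitous isoform, ran from 174 through a median of 224 to 245 CPM in IgG cells, against 148, 173 and 211 CPM in IgM cells. All 6 animals were higher in IgG, and 4 of the 6 IgG sums exceeded every IgM sum. The log2 difference was 0.32 ± 0.07 (adjusted p = 0.000347, edgeR). NDUFA4, with a difference of 0.25 ± 0.07 (adjusted p = 0.0053, edgeR), and COX6B1, the subunit on the intermembrane side that bridges the dimer, with 0.24 ± 0.09 (adjusted p = 0.0428, edgeR), were also higher in 6 of 6 animals.

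The 2 members of complex IV with the most UMIs did not pass. COX4I1 averaged 1081 ± 175 CPM in IgG and 1000.0 ± 168 CPM in IgM cells (SD, n = 6), higher in all 6 animals but by only 0.11 ± 0.06 (adjusted p = 0.149, edgeR). COX7C averaged 656 ± 95.1 CPM in IgG and 674 ± 92.4 CPM in IgM cells, a difference of -0.04 ± 0.06 (adjusted p = 0.685, edgeR). COX7B (0.02), COX6A1 (0.06) and COX6C (0.10) also lay near 0 and were not called. Whether subunits of the enzyme differ from each other in this contrast was not tested.

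In complex III, UQCRQ, a small subunit beside cytochrome b, ran from 102 through 149.9 to 174 CPM in IgG cells, against 82.4, 116.5 and 141 CPM in IgM cells. IgG was higher in every animal, by 0.20 to 0.39, and the log2 difference was 0.33 ± 0.07 (adjusted p = 0.00028, edgeR). Among the other 4 subunits, the core proteins UQCRC1 and UQCRC2 gave 0.18 ± 0.08 and 0.00 ± 0.10, UQCRB 0.18 ± 0.10 and the hinge protein UQCRH 0.04 ± 0.07, none of them called.

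**Figure D2:**
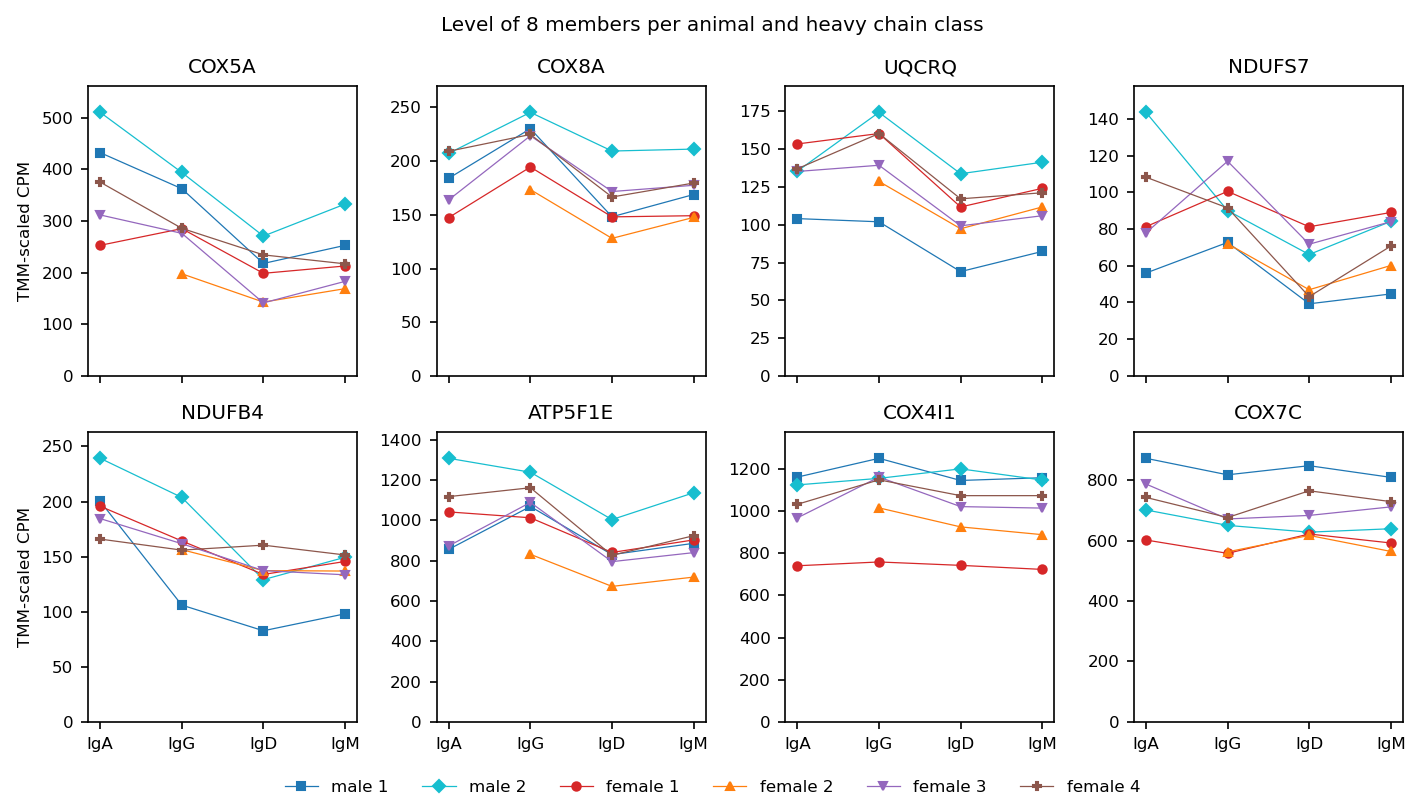
TMM-scaled CPM (vertical axis) of 8 members in IgA, IgG, IgD and IgM sums, with lines joining the sums of an animal. COX5A, COX8A, UQCRQ, NDUFS7 and ATP5F1E were called higher in IgG than in IgM, COX5A and NDUFB4 were called higher in IgA than in IgM (NDUFB4 in IgG as well), and COX4I1 and COX7C were called in neither.

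In complex I, 10 of 30 members were called, and those with the smallest p were NDUFA12, NDUFS7, NDUFA6 and NDUFB11. NDUFS7, which carries the iron-sulfur cluster that hands electrons to ubiquinone, ran from 71.97 through 90.8 to 117 CPM in IgG cells, against 44.6, 77.3 and 89.0 CPM in IgM cells. It was higher in all 6 animals (0.34 ± 0.09, adjusted p = 0.00407, edgeR). The accessory subunits NDUFA12 (0.36 ± 0.09, adjusted p = 0.00181), NDUFB11 (0.25 ± 0.07, adjusted p = 0.0113) and NDUFA6 (0.36 ± 0.09, adjusted p = 0.00418) were higher in 6, 6 and 5 of 6 animals in the same edgeR test. The other 6 called were the accessory subunits NDUFB2, NDUFB3, NDUFB4 and NDUFB7 and the core subunits NDUFS3 and NDUFS8, with differences of 0.21 to 0.30. The electron entry subunits NDUFV2 (0.09 ± 0.08) and NDUFS1 (0.06 ± 0.12) did not pass.

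In complex V, ATP5F1E averaged 1067 ± 140 CPM in IgG cells and 901.5 ± 137 CPM in IgM cells (SD, n = 6), and the difference of 0.25 ± 0.06 was positive in every animal (adjusted p = 0.00265, edgeR). ATP5MJ, a small membrane subunit, gave 0.22 ± 0.07 (adjusted p = 0.0186, edgeR; 6 of 6 animals), and ATP5F1A, the alpha subunit of the catalytic head, 0.21 ± 0.07 (adjusted p = 0.0409, edgeR; 5 of 6). Its partner ATP5F1B, the catalytic beta subunit, gave 0.18 ± 0.08 and was not called, nor were the proton ring genes ATP5MC1 (0.16), ATP5MC2 (0.01) and ATP5MC3 (0.16), which encode the same mature protein. Complex II had no called member, although SDHA, SDHB, SDHC and SDHD lay between 0.15 and 0.22, as high as the median of complex I at 0.20. Its assembly factors SDHAF1, SDHAF2 and SDHAF4 gave 0.01, 0.15 and 0.02.

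IgA cells were compared with the same IgM sums in the 5 animals that had both, so these values share their IgM side with those of IgG. Of 65 members, 8 were higher in IgA and 0 lower, or 12.3%, against 13.1% of all genes called (5.05% higher and 8.03% lower). The median was 0.16 over the members, with 53 above 0, and -0.05 over all genes. In the 3 females with IgA cells, 4 were called higher, against 8.82% of all genes, and without female 4 the count was 4, against 10.6%. IgA sums held only 21 to 41 cells, and the median SE of a member was 0.15, against 0.08 for IgG. Over all genes it was 0.28 for IgA against IgM.

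COX5A stood out in complex IV here too, with 432 and 510.3 CPM in IgA sums of males 1 and 2 and 253, 312 and 375 CPM in those of females 1, 3 and 4. Each exceeded the IgM sum of its animal, although females 1 and 3 in IgA lay below male 2 in IgM (333 CPM). The difference was 0.61 ± 0.11, 1.52-fold (adjusted p = 0.000129, edgeR), beside 0.41 for IgG. COX5B, the zinc-binding subunit, was called as well (0.43 ± 0.11, adjusted p = 0.00566, edgeR), and averaged 306 ± 53.3 CPM in IgA cells (n = 5) and 215 ± 37.2 CPM in IgM cells (n = 6). COX7B gave 0.45 ± 0.13 (adjusted p = 0.0206, edgeR) and NDUFA4 0.33 ± 0.10 (adjusted p = 0.0175, edgeR), both higher in 5 of 5 animals. COX8A, by contrast, lay at 182 ± 26.9 CPM in IgA and 172 ± 23.4 CPM in IgM cells, a difference of 0.01 ± 0.11 that was not called.

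The other 4 calls were accessory subunits of complex I. NDUFB4 had 200.1 and 239 CPM in IgA sums of males 1 and 2 and 196, 185 and 166 CPM in those of females 1, 3 and 4, all above the highest IgM sum at 152 CPM, and differed by 0.52 ± 0.12 (adjusted p = 0.00378, edgeR). NDUFB5 had the largest difference, 1.06 ± 0.25 (adjusted p = 0.0039, edgeR), with 47.1 ± 20.5 CPM in IgA and 22.7 ± 9.57 CPM in IgM cells. It rests on 46 UMIs in all IgA cells, 3 to 17 per animal, and without female 4 its difference was 0.84 with an adjusted p of 0.0502 by edgeR. NDUFA8, with 47 IgA UMIs, gave 0.78 ± 0.25 (adjusted p = 0.0384, edgeR; 4 of 5 animals), and NDUFA1 0.28 ± 0.09 (adjusted p = 0.0402, edgeR; 5 of 5). Complexes II, III and V had no call, and COX4I1 (-0.02 ± 0.07), COX7C (0.10 ± 0.07) and ATP5F1E (0.14 ± 0.07) did not pass.

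IgA against IgG, from the same sums, gave 2 calls among 65 members (3.08%), against 13.2% of all genes (4.8% higher and 8.43% lower). NDUFB5 was higher in IgA by 0.92 ± 0.26 (adjusted p = 0.0124, edgeR) and COX7B by 0.43 ± 0.14 (adjusted p = 0.0296, edgeR), each in 5 of 5 animals. COX7B averaged 161 ± 38.1 CPM in IgA cells and 114 ± 22.0 CPM in IgG cells. In females alone 1 member was called, against 9.87% of all genes, and it was neither of these. Only 1 of these 2 was called without male 1 (12% of all genes called), female 1 (10.8%) or female 3 (10.1%), and neither was made without female 4. The median over members was -0.01, with 32 above 0 and 33 below.

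IgD against IgM gave no call in edgeR or in DESeq2, against 2.41% of all genes called by edgeR (0.836% higher and 1.57% lower). An unadjusted p under 0.05 was reached by 8 of the 65 members, against 12.3% of all genes. In females alone no member was called, against 1.34% of all genes, and without female 2 there was 1 lower, against 2.23%. Of the 65, 51 lay below 0, and the median was -0.07, against 0.00 over all genes. NDUFA8 (-0.45 ± 0.16, adjusted p = 0.171, edgeR), NDUFS7 (-0.26 ± 0.10, adjusted p = 0.243, edgeR) and COX6B1 (-0.24 ± 0.10, adjusted p = 0.285, edgeR) were below IgM in all 6 animals. COX5A had 141 to 271 CPM in IgD cells and 169 to 333 CPM in IgM cells, with a difference of -0.21 ± 0.08 (adjusted p = 0.228, edgeR). These 4 were named after their values were seen.

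**Figure D3:**
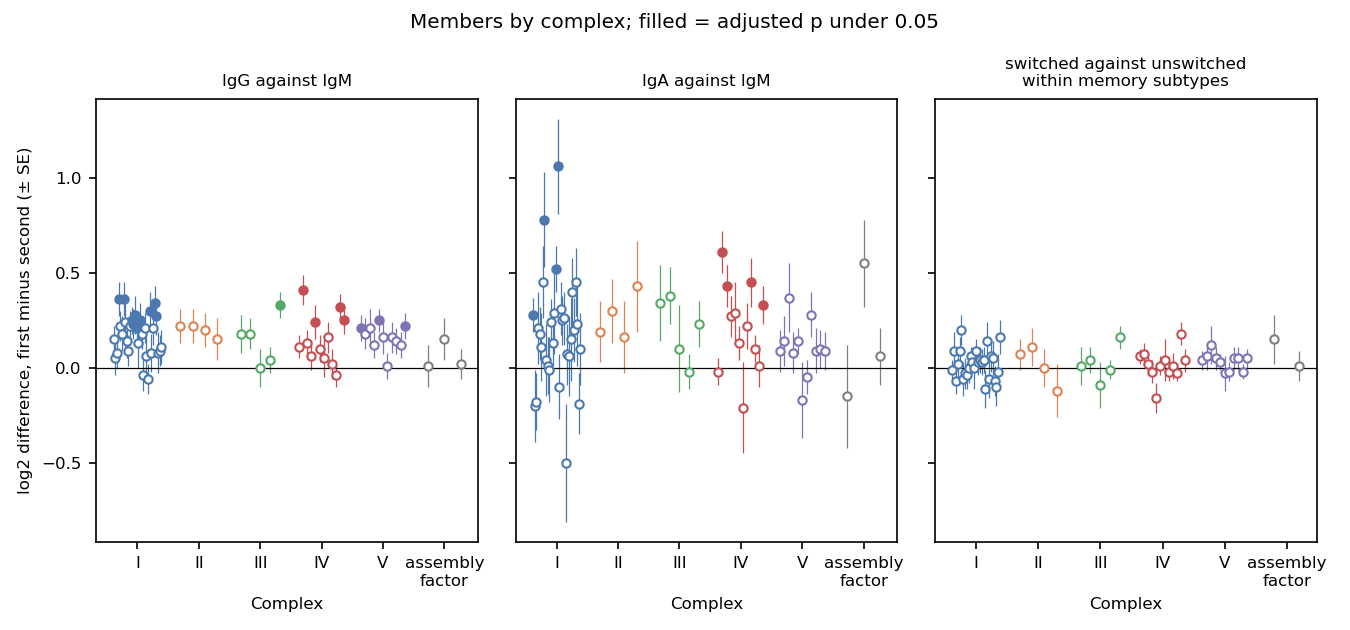
Log2 difference (vertical axis, ± SE) of each member that passed the filter, by complex, for IgG against IgM (left), IgA against IgM (middle) and switched against unswitched cells within memory subtypes (right), with filled points for adjusted p under 0.05. Filled points number 18, 8 and 0, and the right panel is centred near 0 (median 0.03).

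The classes differ in which annotated subtypes they hold. IgA cells were 58.8% C-MBC 2 and 9.8% antibody-secreting cells, IgG cells 30.8% CD11c+ MBC 2 and 29.7% C-MBC 1, IgD cells 31.5% M-MBC 1 and 24.9% Naive B cells 1, and IgM cells 19.2% M-MZL BC, 18.9% M-MBC 1 and 16.7% Naive B cells 1. Among memory subtypes alone (names with MBC) and without a term for subtype, a restriction added after the results were seen, IgG against IgM left 1 member called, COX5A at 0.32 (adjusted p = 0.00357, edgeR), against 9.97% of all genes. IgA against IgM left 11, against 16.6% of all genes, with COX5A at 0.61 and NDUFB5 at 1.03. IgA against IgG had 3 called, against 14.3% of all genes, and IgD against IgM 1 lower, against 2.1%.

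To set class apart from subtype, switched cells (IgG, IgA and IgE) were compared with unswitched cells (IgM and IgD) of the same animal and memory subtype, in 27 pairs of sums. None of 61 members tested was called by edgeR, by DESeq2 or by limma on 1 value per animal, against 2.59% of 5049 genes called by edgeR (1.19% higher and 1.41% lower). In females alone none was called, against 1.31% of all genes. The median over members was 0.03, against 0.00 over all genes, and 4 members reached an unadjusted p under 0.05 in edgeR, as did 14.1% of all genes: COX8A (0.18 ± 0.06, higher in 6 of 6 animals), NDUFA5 (0.20 ± 0.08, 6 of 6), UQCRQ (0.16 ± 0.06, 4 of 6) and COX6B1 (-0.16 ± 0.08), named after their values were seen.

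The 6 memory subtypes differed in the size of the gap for COX5A. The widest was in C-MBC 2, where it averaged 485.6 ± 131 CPM in switched and 403 ± 158.5 CPM in unswitched cells (n = 3), higher in 3 of 3 animals by a mean of 0.30 on the log2 scale. In M-MBC 1 it averaged 178.9 ± 67.6 CPM in switched and 196.8 ± 64.3 CPM in unswitched cells (n = 5; -0.17), and in M-MBC 2 264 ± 118 CPM in switched and 263 ± 90.4 CPM in unswitched cells (n = 3). It averaged 286 ± 66.1 CPM in switched and 286 ± 65.8 CPM in unswitched CD11c+ MBC 2 (n = 5), 324 ± 69.9 and 302 ± 80.7 CPM in switched and unswitched C-MBC 1 (n = 5), and 220 ± 51.4 and 214.5 ± 50.5 CPM in switched and unswitched CD11c+ MBC 1 (n = 6). All 6 gaps were smaller than the SD between animals, and the fitted difference was 0.07 ± 0.06 (adjusted p = 0.694, edgeR). COX8A averaged 229 ± 46.3 CPM in switched and 159 ± 29.6 CPM in unswitched M-MBC 1, and 215 ± 31.2 CPM in switched and 171 ± 23.8 CPM in unswitched C-MBC 1, higher in all 5 animals of each. In CD11c+ MBC 2 it stood at 229.8 ± 17.9 CPM in switched and 232 ± 23.8 CPM in unswitched cells. Whether the differences within subtypes are smaller than those between whole classes was not tested.

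Other genes of mitochondrial metabolism did not all move with the members in IgG against IgM. Of all genes tested there, 12.5% were called higher and 10.9% lower. Subunits outside the symbol rule gave 3 higher and 0 lower of 6: ATP5IF1, the inhibitor of the ATP synthase (0.55 ± 0.10), CYC1, cytochrome c1 (0.28 ± 0.09), and ATP5PF (0.22 ± 0.08). The subunits encoded by mitochondrial DNA went the other way, with 0 higher and 5 lower of 12 and a median of -0.16, led by ND3 (-0.30 ± 0.09) and ND4L (-0.20 ± 0.06) of complex I. Their share of named UMIs was 2.47% ± 0.61 in IgG and 2.73% ± 0.628 in IgM cells.

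Assembly factors gave 4 higher and 1 lower of 37, with COX19 (0.50 ± 0.09) and COX16 (0.40 ± 0.07), both of complex IV, having the smallest p. Of the regulators of mitochondrial gene expression, 0 were higher and 2 of 11 lower, namely MYC (-1.13 ± 0.20) and PPRC1 (-0.41 ± 0.13). The TCA cycle had 1 higher of 17 (SUCLA2, 0.35 ± 0.13), mitochondrial ribosomal proteins 2 higher and 1 lower of 69 (MRPL18, 0.46 ± 0.12), carriers and uncoupling genes 3 higher and 1 lower of 9 (the outer membrane channel VDAC1, 0.46 ± 0.08, and the phosphate carrier SLC25A3, 0.30 ± 0.07). Glycolysis had 5 higher and 1 lower of 16, from GAPDH (0.52 ± 0.08) to ENO2 (-1.31 ± 0.16). Cytosolic ribosomal protein genes had 0 higher and 32 lower of 73, with a median of -0.14, and their share was 17.1% ± 1.97 in IgG and 19.1% ± 2.51 in IgM cells. All calls are by edgeR at an adjusted p under 0.05. Against 23.4% of all genes called either way, shares were 13.5% of assembly factors, 5.88% of TCA cycle genes and 4.35% of mitochondrial ribosomal proteins. They were 18.2% of regulators, 37.5% of glycolysis genes, 44.4% of carriers and uncoupling genes and 43.8% of cytosolic ribosomal proteins. The part of the ribosomal share in the members' differences was not tested on its own. A setting that took those genes out of the library sizes also dropped TMM scaling, so the 2 changes cannot be told apart. That left 9 of 18 calls, and the share of all genes called in that setting is not given.

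In IgA against IgM the same lists gave 1 higher of 6 for other subunits (ATP5PF, 0.40 ± 0.12), 1 higher of 12 for mitochondrially encoded subunits (COX1, 0.34 ± 0.08), 2 higher of 37 for assembly factors (COX19, 0.98 ± 0.18, and COX20, 0.85 ± 0.23), 2 higher of 17 for the TCA cycle (IDH3G and IDH2), 2 higher of 9 for carriers (UCP2, 0.73 ± 0.12) and 5 higher of 69 for mitochondrial ribosomal proteins (MRPL52, 1.09 ± 0.21). Glycolysis had 3 higher and 1 lower of 16, cytosolic ribosomal proteins 2 higher and 9 lower of 73, and regulators no call of 11. Of all genes, 5.05% were called higher and 8.03% lower. In IgD against IgM the calls were 2 lower of 16 in glycolysis and 1 lower of 69 mitochondrial ribosomal proteins. All genes gave 0.836% higher and 1.57% lower there. Between switched and unswitched memory cells the calls were 1 lower of 69 cytosolic ribosomal proteins, with none in the other 8 lists. All genes gave 1.19% higher and 1.41% lower in that comparison. T cell markers (CD3D, CD3E, CD3G and TRAC) summed to 104.1 to 339.1 CPM (median 151.5) in IgA sums. In IgM sums they gave 38.4 to 204.8 CPM (median 80.6), and their part in the calls was not tested. Markers of antibody-secreting cells (JCHAIN, MZB1, PRDM1 and XBP1) summed to 456 to 2195 CPM in IgA, 169.6 to 396.6 CPM in IgG and 226.5 to 480.7 CPM in IgM sums, and IgA against IgM without antibody-secreting cells and Naive B cells 2 and 3 gave 8 calls, all shared with the 8 above, against 11.4% of all genes.

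The annotated subtypes were described without a test, because they were named from the same expression values. Each member's log2 level was set against its average over the animal's other subtypes, on the scale log2(CPM + 5). Naive B cells 2 and 3 were left out of that mean because their members lay far below the rest. That choice rests on the members' own values, and the counts below depend on it. With both kept in the mean, 46 members were higher in all 6 animals in CD11c+ MBC 2, 33 in C-MBC 1 and 31 in C-MBC 2. Shares of all genes with both kept in are not given. CD11c+ MBC 2 and C-MBC 2 had the most members above their other subtypes, and their order turned with the scaling. In CD11c+ MBC 2, of the 65 members over the filter, 34 were higher in all 6 animals and 0 lower, or 52.3%, against 16.7% of all genes higher and 12.6% lower, with a median of 0.27 (0.01 over all genes). With ribosomal protein genes out of the library sizes the count was 22 and the median 0.21 in CD11c+ MBC 2, below the 25 and 0.25 of C-MBC 2. Its summed level was 1.29% ± 0.0972, against 0.978% ± 0.0314 in Naive B cells 1, a log2 ratio of 0.39 ± 0.12 (higher in 6 of 6). As a share of UMIs without ribosomal protein and mitochondrially encoded genes, the level was 1.565% ± 0.115 in CD11c+ MBC 2, 1.63% ± 0.211 in C-MBC 2 and 1.315% ± 0.0691 in Naive B cells 1. Cells of CD11c+ MBC 2 carried a mean of 7598 UMIs, against 4724 in Naive B cells 1. All 3 natural killer cell markers (GNLY, NKG7 and KLRD1) were detected in both, at a summed 55.8 to 190.4 CPM (median 114.9) in CD11c+ MBC 2, the highest median of any subtype, and 6.02 to 50.6 CPM (median 10.1) in Naive B cells 1. The part of depth and of these markers in the members' levels was not tested.

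The members that stood out in CD11c+ MBC 2 came from every complex. They were led by NDUFA12 (0.71 ± 0.26, SD over 6 animals) and NDUFS7 (0.68 ± 0.20) of complex I, SDHA, the flavoprotein of complex II (0.57 ± 0.20), UQCRQ (0.56 ± 0.17), COX8A (0.56 ± 0.14) and ATP5MC1 (0.52 ± 0.13). COX8A averaged 244 ± 19.5 CPM in CD11c+ MBC 2 and 121 ± 14.8 CPM in Naive B cells 1, and the lowest sum of CD11c+ MBC 2 (220.5 CPM) lay above the highest of Naive B cells 1 (143 CPM). ATP5F1E averaged 1212 ± 155 CPM in CD11c+ MBC 2, against 697 ± 64.7 CPM in Naive B cells 1, again with no overlap.

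C-MBC 2, the subtype that held most IgA cells, had 21 members higher in all 6 animals and 0 lower (32.3%, against 11.9% of all genes higher and 8.96% lower), with a median of 0.21. Of these 21, the highest were NDUFB5 (0.91 ± 0.33), the flavin-insertion factor SDHAF2 (0.82 ± 0.31), NDUFA8 (0.73 ± 0.47), NDUFB4 (0.53 ± 0.21) and NDUFB3 (0.45 ± 0.28), while COX5A (0.57 ± 0.30), SDHD (0.55 ± 0.53) and NDUFA6 (0.52 ± 0.47) were higher in 5 of 6 animals. NDUFB5 averaged 42.0 ± 16.3 CPM in C-MBC 2 and 15.2 ± 7.46 CPM in Naive B cells 1. COX5A reached its highest mean here, 352 ± 120 CPM, followed by C-MBC 1 (306 ± 55.3) and CD11c+ MBC 2 (300.4 ± 41.3). Whether these neighbours in the order differ within animals was not tested. Naive B cells 1 had 173 ± 21.6 CPM.

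**Figure D4:**
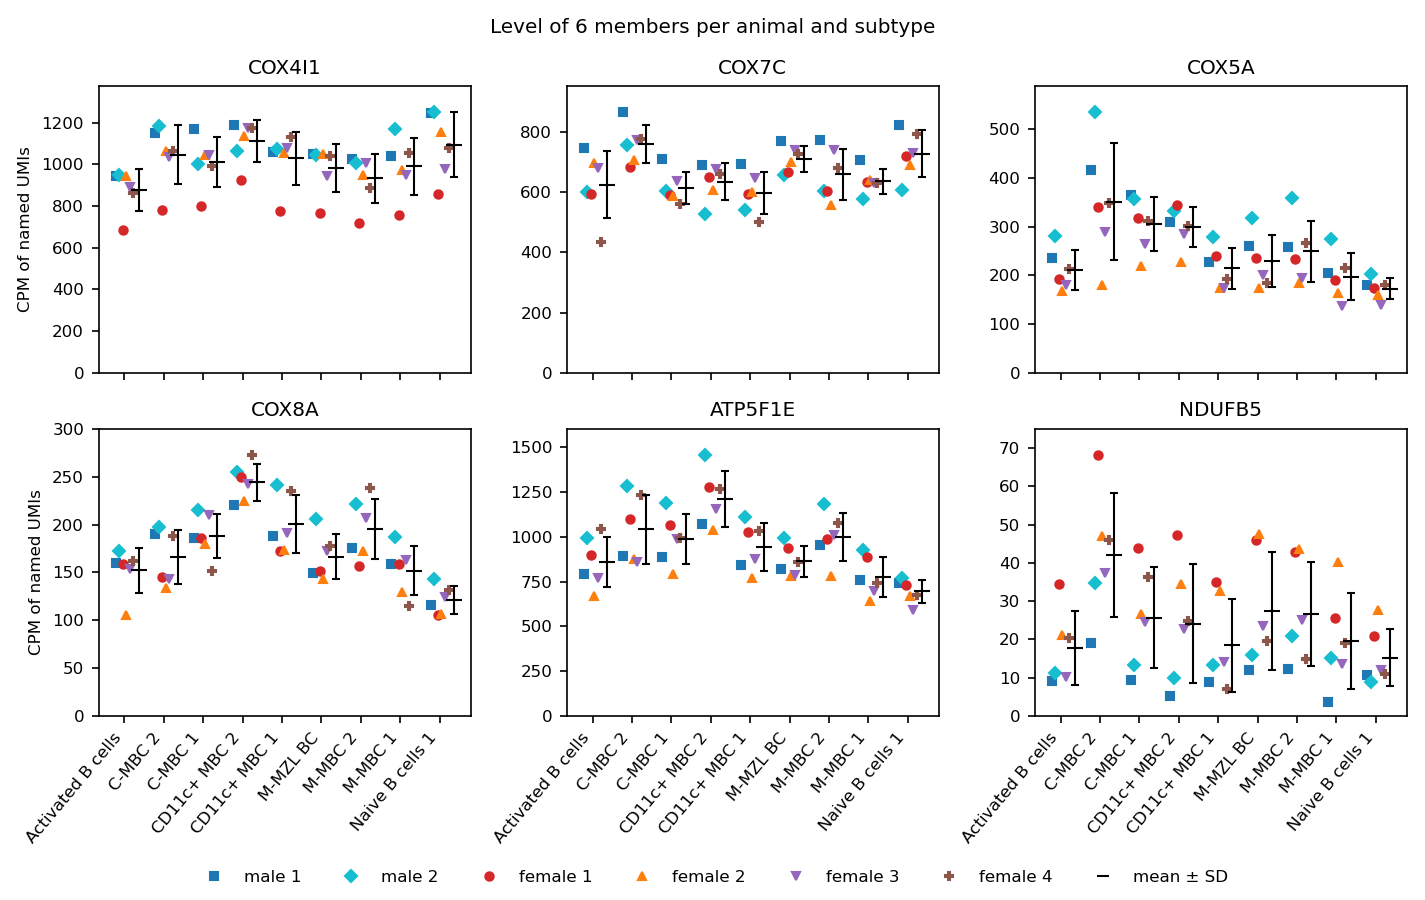
CPM of named UMIs (vertical axis) of 6 members in sums per animal of 9 annotated subtypes, with bars for the mean ± SD over 6 animals. COX4I1 and COX7C are nearly level across subtypes, COX5A, COX8A and ATP5F1E are higher in memory subtypes than in Naive B cells 1, and NDUFB5 has its highest mean in C-MBC 2 (42.0 CPM).

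Naive B cells 1 had 22 members lower in all 6 animals (33.8%, against 18.8% of all genes) and 3 higher (4.62%, against 13.4%), with a median of -0.24. With TMM scaling the counts were 14 lower and 5 higher and the median -0.14. Against a mean that kept Naive B cells 2 and 3, they were 4 lower and 7 higher. COX6B1 (-0.70 ± 0.32), UQCRQ (-0.64 ± 0.31), NDUFS7 (-0.58 ± 0.22), ATP5MJ (-0.58 ± 0.10), COX8A (-0.54 ± 0.11) and COX5A (-0.48 ± 0.18) were among the lower ones. The 3 higher members were COX7C (0.24 ± 0.19), COX4I1 (0.17 ± 0.10) and UQCRH (0.13 ± 0.05).

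The ratio of transcripts of complex IV subunits therefore varied between subtypes in these sums, and whether it differs was not tested. The ratio of COX4I1 to COX5A CPM was 3.30 ± 1.37 in C-MBC 2, 3.40 ± 0.817 in C-MBC 1, 3.79 ± 0.786 in CD11c+ MBC 2 and 6.36 ± 0.851 in Naive B cells 1 (SD, n = 6 each). M-MBC 1 (5.18 ± 1.12) and CD11c+ MBC 1 (4.98 ± 1.25) lay between these. Ranges of C-MBC 2 (2.21 to 5.9) and CD11c+ MBC 2 (2.70 to 4.98) overlapped that of Naive B cells 1 (4.94 to 7.21). The range of C-MBC 1 (2.52 to 4.76) did not. The ratio of COX4I1 to COX8A was 4.58 ± 0.622 in CD11c+ MBC 2 and 9.09 ± 1.36 in Naive B cells 1. The 6 animals did not overlap in this second ratio, which ran from 3.72 to 5.39 in CD11c+ MBC 2 and from 7.87 to 10.8 in Naive B cells 1. Both ratios were chosen after the values were seen and do not depend on library size. COX4I1 itself averaged 1111 ± 101 CPM in CD11c+ MBC 2 and 1095 ± 156 CPM in Naive B cells 1.

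Activated B cells had 27 members lower in all 6 animals and 0 higher (41.5%, against 15.2% of all genes lower and 8.29% higher), with a median of -0.23, against -0.14 over all genes. With TMM scaling the counts were 12 lower and 1 higher and the median -0.12. Against a mean that kept Naive B cells 2 and 3, they were 3 lower and 4 higher. Among those lower in all 6, NDUFS1 (-0.82 ± 0.92) and SDHAF1 (-0.77 ± 1.01) were lowest but spread widely between animals, followed by NDUFS7 (-0.64 ± 0.27), NDUFA12 (-0.58 ± 0.23) and NDUFS3 (-0.53 ± 0.31). The members' summed share, 0.99% ± 0.0554, was close to that of Naive B cells 1 (log2 ratio 0.02 ± 0.07, higher in 4 of 6). M-MBC 1 had 14 lower and 0 higher (21.5% lower, against 8.12% of all genes lower and 10.1% higher), with NDUFS8 (-0.61 ± 0.48) and NDUFA6 (-0.44 ± 0.33) lowest among them. With Naive B cells 2 and 3 kept in the mean, M-MBC 1 had 1 lower and 7 higher. M-MBC 2 had 2 higher and 0 lower, against 9.97% and 4.72% of all genes, and M-MZL BC 4 and 2, against 14.1% and 8.53%. CD11c+ MBC 1 had 7 higher and 3 lower, against 15.8% and 10% of all genes, and C-MBC 1 8 and 4, against 9.19% and 8.03%. The medians of these 4 subtypes lay between -0.00 and 0.05.

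By the range of mean log2 level over subtypes other than Naive B cells 2 and 3, the most variable members were NDUFA12 (1.93), NDUFA8 (1.73), COX7C (1.72), SDHC (1.70) and UQCRC2 (1.56). These ranges rest on antibody-secreting cells, present as 3 sums of 10 to 19 cells. Without those cells they were NDUFA8 (1.28), NDUFB5 (1.21), NDUFS7 (1.18), NDUFA12 (1.15) and UQCRQ (1.08). In antibody-secreting cells the members summed to 1.64%, 1.12% and 0.617% in females 1, 3 and 4, a wider range than in any memory subtype. UQCRC2 averaged 102 ± 27.8 CPM there and 46.2 ± 18.7 CPM in Naive B cells 1, and COX7C 266 ± 169 and 727 ± 77.4 CPM in the same 2 groups.

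Naive B cells 2 and 3 departed from all of these. The summed share was 0.481% ± 0.198 in Naive B cells 2 (n = 6), 0.416% ± 0.147 in Naive B cells 3 (n = 4) and 0.978% ± 0.0314 in Naive B cells 1 (n = 6). Naive B cells 2 ranged from 0.281% to 0.815%, below the lowest sum of Naive B cells 1 at 0.927%. The log2 ratio over Naive B cells 1 was -1.12 ± 0.53 for Naive B cells 2 and -1.30 ± 0.51 for Naive B cells 3, lower in every animal. For Naive B cells 2 it was -0.76 and -0.32 in males 1 and 2 and ran from -1.03 to -1.77 in the females. Mean UMIs per cell were also lower, at 3858 in Naive B cells 2 and 2271 in Naive B cells 3. Naive B cells 1 had 4724. Within males 1 and 2, however, Naive B cells 2 carried more UMIs per cell (4219 and 4790) than Naive B cells 1 (3781 and 3194).

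The difference was uneven within the machinery. In Naive B cells 2 against Naive B cells 1 the median member differed by -1.0, with 58 lower and 7 higher by their mean over animals. Over all genes the median was 0.18, with 3925 lower and 5477 higher. COX4I1 (-2.16 ± 1.12), COX7C (-1.88 ± 0.84) and ATP5MC2 (-1.79 ± 0.77) were lowest, each in 6 of 6 animals. NDUFS4 (0.81 ± 0.26), NDUFA9 (0.78 ± 0.61) and SDHAF4 (0.53 ± 0.31), picked after their values were seen, were higher in 6 of 6. For this pair of subtypes the share of all genes higher or lower in every animal is not given. NDUFS4 averaged 83.0 ± 17.8 CPM in Naive B cells 2, from 96 UMIs, and 45.1 ± 9.36 CPM in Naive B cells 1, and the lowest sum of Naive B cells 2 (62.6 CPM) exceeded the highest of Naive B cells 1 (54.6 CPM).

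Mitochondrially encoded subunits went the other way in the same cells. All 12 were higher in Naive B cells 2, with a median of 0.77, and their share of named UMIs was 4.80% ± 1.34 in Naive B cells 2, 4.603% ± 0.708 in Naive B cells 3 and 2.85% ± 0.776 in Naive B cells 1. All 73 cytosolic ribosomal protein genes were lower in Naive B cells 2, with a median of -1.98. In Naive B cells 3 the median was -1.37 for the members (60 lower and 5 higher). Over all genes it was -0.16, with 5282 lower and 4099 higher. It was 0.93 for mitochondrially encoded subunits and -2.03 for ribosomal proteins (72 lower and 1 higher). What part RNA quality or depth has in these levels was not tested.

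**Figure D5:**
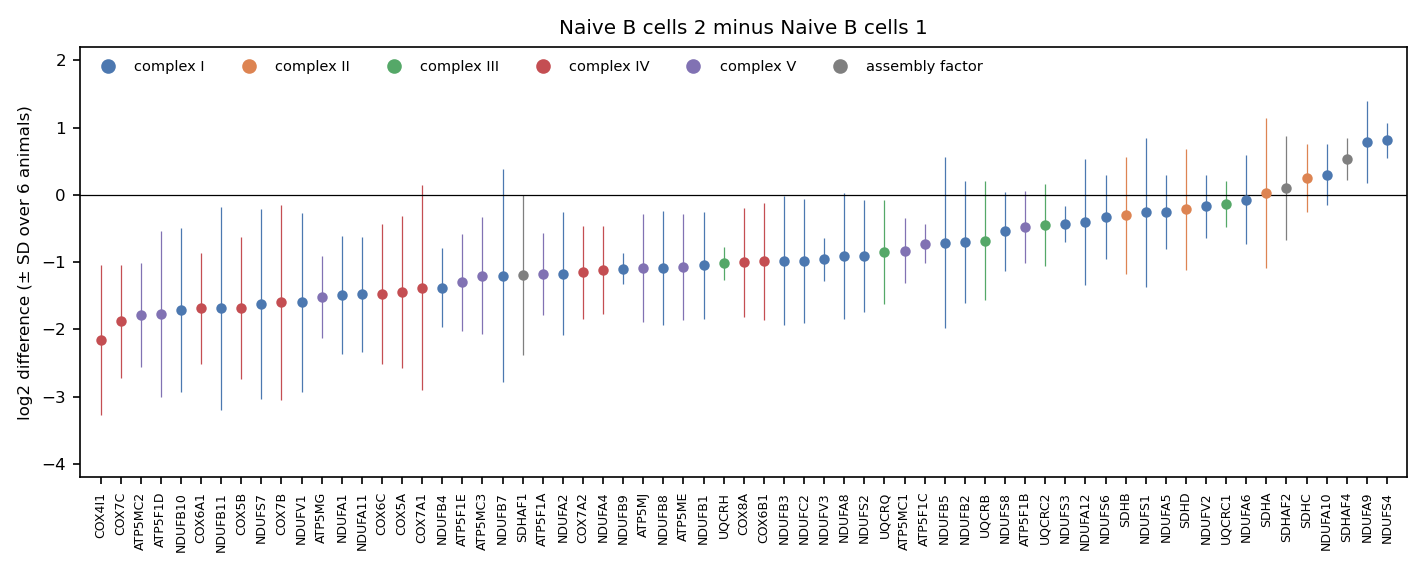
Mean log2 difference of Naive B cells 2 minus Naive B cells 1 (vertical axis, ± SD over 6 animals) for the 65 members over the filter, ordered by value and coloured by complex. COX4I1 (-2.16) and COX7C (-1.88) lie at the left end and NDUFS4 (0.81) at the right end, with the complex II subunits between -0.30 and 0.25.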

How the data were processed

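Blood mononuclear cells of 6 rhesus macaques were captured with droplet chemistry that reads transcripts from the cap end, per the labels' protocols. The authors deposited a single table of raw UMI counts per gene and cell, with a cell table giving UMI counts, the percent of UMIs from mitochondrial genes and the annotation, and counts of UMIs per receptor contig. The percent of mitochondrial UMIs, deposited by the authors, was not used for filtering. The submitters' processing notes name Seurat 5.0.1, Cell Ranger 9.0.1 and R 4.3.1. Genome build, annotation, strand setting and treatment of doublets in counting are not given in the sources used here, and no further doublet step was run.

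The unit of replication was the animal: UMI counts of its cells were added up by class or by subtype, and sums under 10 cells were left out. Identifiers without a gene name (5813, with 14.9% of UMIs) and 23 named immunoglobulin genes (0.188%) stayed out of library sizes and tests. Class came from the constant gene of the single productive heavy chain, and cells with none (2636) or more than 1 (282) were not used for classes. Class sums (23, libraries of 118215 to 8750598 counts) were tested in R 4.3.3 with edgeR 4.0.16 (filterByExpr, TMM, quasi-likelihood F test) and the animal as a block, since every animal supplies all its classes, which is also the source of the pairing. P-values were adjusted by Benjamini-Hochberg over all genes tested. Switched and unswitched memory sums (54) had blocks for animal and subtype, and an animal entered with several of them. DESeq2 1.42.0 and limma 3.58.1 were alternatives. The script was checked on counts simulated with known changes, with 2 kinds of spread between sums. With each gene's own estimated spread taken as true, the share of false calls for IgG against IgM came out above the threshold of 0.05, and with a spread set by abundance alone, added after that result was seen, it stayed below. For switched against unswitched memory cells it stayed below with both. Single calls near the threshold for IgG against IgM are therefore less sure than their adjusted p states. Subtype sums (67, down to 20267 counts) were described as CPM of library size, without TMM. With few cells per sum, low members such as NDUFB5 are imprecise, and UMIs of the same cell are not independent.

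The members and gene lists were chosen with earlier results of these data known. In each class comparison the text names up to 4 called members of each complex with the smallest p and the 3 with the highest CPM. Across subtypes it names the 5 members with the highest CPM, the 5 with the widest range among those of at least 20 CPM, and tissue isoforms. Of each list it takes the 2 genes with the smallest p for IgG against IgM. Others are named as chosen after their values were seen or to complete a complex. Another marker of the B cell list is not reported here.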

Additional observations from a re-analysis of the deposited data

Results flagged for a closer look

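COX7C in IgG against IgM had opposite signs in the sexes, which are also the batches. Its mean log2 difference was 0.02 in the 2 males, both above 0, and -0.07 in the 4 females, all below 0, and this difference was not tested. COX7C was not called in any setting of that comparison.

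The summed level of the members in Activated B cells was 1.097% of named UMIs in male 2, far from the other 5 animals, which lay between 0.947% and 0.987%. Of 52 values looked at in this way, 1 stood apart, and chance marks about 1 in 20.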

How the results depend on the processing

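The number of members called followed the settings. For most settings below the share of all genes called is not given, so these counts cannot tell the members from genes at large. In these fits, the setting without ribosomal protein genes also left out TMM scaling, as did library size alone. IgG against IgM gave 18 calls, 11 without a filter on low counts, 11 with unnamed and immunoglobulin genes kept, 9 with ribosomal protein genes out of the library sizes and 1 in memory subtypes alone. Leaving out an animal gave 8 to 19, with 8 without female 3. IgA against IgM gave 8 calls, 13 with DESeq2, 13 with library size alone, 4 without a filter, 14 without ribosomal protein genes, 2 in cells of 2000 to 10000 UMIs and 4 in batch 2. Leaving out an animal gave 4 to 8, with 4 without female 4. IgA against IgG gave 2 calls, 5 with DESeq2, 5 with library size alone, 1 without a filter, 9 without ribosomal protein genes, 1 (a lower one) in cells of 2000 to 10000 UMIs, 1 in batch 2, and 1 to 2 without an animal (1 without male 1, female 1 or female 3). IgD against IgM gave 0 calls, 1 in memory subtypes alone, and 0 to 1 without an animal (1 without female 2). Switched against unswitched memory cells gave 0 under all settings tried. With no replicate block the counts were 0 for IgG against IgM, 0 for IgA against IgM and 0 for IgA against IgG, so these calls rest on the pairing within animals. The cause of these shifts was not tested, apart from the fewer animals or cells that some settings leave.

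Subtype medians against all other subtypes moved when Naive B cells 2 and 3 were left out: Naive B cells 1 -0.24 (from -0.07 with them in), M-MBC 1 -0.12 (0.13), M-MBC 2 0.05 (0.28), M-MZL BC -0.00 (0.23), CD11c+ MBC 1 0.03 (0.25), C-MBC 1 0.04 (0.28), Activated B cells -0.23 (0.02) and antibody-secreting cells -0.01 (0.32). TMM scaling with both clusters in gave 0.11 for Naive B cells 1, 0.19 for Activated B cells and -0.10 for antibody-secreting cells. With both out, TMM gave 0.00 for M-MZL BC and -0.12 for Activated B cells, and library sizes without ribosomal protein genes gave 0.04 for M-MZL BC and -0.00 for CD11c+ MBC 1. Summed ratios on UMIs without ribosomal protein and mitochondrially encoded genes were 0.10 for IgG over IgM and, over Naive B cells 1, -0.01 for M-MBC 1, 0.06 for CD11c+ MBC 1, 0.25 for CD11c+ MBC 2, 0.10 for C-MBC 1, -0.06 for Activated B cells and -0.01 for antibody-secreting cells.

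Among single named members, 523 values kept their side and direction, 98 lost the call, 9 gained it and 18 turned sign, all of members not called. COX4I1 in IgA against IgM gave 0.05 with DESeq2, 0.05 with median-ratio factors, 0.08 with library size, 0.00 with no replicate block, 0.09 without ribosomal protein genes, 0.01 and 0.03 without female 2 or female 3 (-0.04 to 0.03 over all animals left out in turn), 0.03 without Naive B cells 2 and 3 and antibody-secreting cells, and 0.05 in memory subtypes. Without ribosomal protein genes, IgA against IgG gave 0.02 for COX4I1 and 0.04 for ATP5F1E (0.00 with library size). IgD against IgM gave -0.00 without a filter and -0.01 in memory subtypes for COX4I1 and -0.03 in memory subtypes for COX7C. COX7C in IgG against IgM gave 0.02 in memory subtypes. ATP5F1E in switched memory cells gave -0.02 at 20 cells per sum and -0.00 without female 3.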
